A study of Rattus norvegicus with 8 samples.

Results

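Cholesterol biosynthesis was described through 8 genes chosen by name, Hmgcs1, Idi1, Fdps, Fdft1, Sqle, Lss, Dhcr7 and Srebf2, out of 27110 genes named on the array. The first 7 encode enzymes and Srebf2 encodes the transcription factor SREBP-2. They were measured by 11 probes on 29 spots, and all 11 probes passed the filter on dim signals that 23111 of 45598 probes passed. The study asked how bone marrow-derived mesenchymal cells (BM-MCs) affect small hepatocyte-like progenitor cells (SHPCs), clusters of small hepatocytes that grow in rat livers given retrorsine (Ret), an alkaloid that blocks the division of mature hepatocytes (MHs), and partial hepatectomy (PH). RNA of cells cut out by laser microdissection (LMD) was hybridised to 1-colour Agilent arrays.

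By the labels there were 2 samples of MHs and 3 samples of SHPCs from control recipient livers, and 3 samples of SHPCs from recipient livers transplanted with BM-MCs. All recipients were F344 rats treated with Ret/PH according to the methods, so that the MHs were not hepatocytes of untreated animals. The labels call the strain of every sample DPPIV+, whereas the methods give the recipients as female DPPIV- rats and the donors of the BM-MCs as male DPPIV+ rats. The age of the recipients and the day on which the cells for the arrays were cut are not given in the labels. The paper took recipient livers for histology 2 weeks after transplantation and names no separate day for the LMD. No source says which animal a sample came from. Samples of 1 group may therefore share an animal, and every p-value below rests on the spread between cuts, which may be technical, and may be too small.

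One slide, scanned once, held all 8 arrays, and 57.0% to 61.5% of their spots exceeded background clearly. Of the 2 sets of 4 arrays, set 1 held both MH samples with control SHPC samples 1 and 2, and set 2 held control SHPC sample 3 with all samples given BM-MCs, so that set and transplantation largely coincide. Values are log2 signals minus the log2 of the 75th percentile over that array, and a difference of 1 on this scale is a doubling. The cuts were checked against 8 hepatocyte markers, which include Alb, Ttr, Apoa1 and Cps1. All 8 were tested, and their summed signal, in multiples of the 75th percentile, was 598 to 674 in MHs, 586 to 722 in control SHPCs and 577 to 669 in SHPCs with BM-MCs. The ranges of the 3 groups overlapped. Single markers differed in sign. In control SHPCs against MHs, Apoa1 (0.73), Cps1 (0.92) and Tat (1.04) were above and Hnf4a (-0.19) and Cyp2e1 (-1.23) below without overlap, and 0 of 8 passed in any comparison. These 5 were named after their values were seen.

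Cholesterol is built from acetyl-CoA through mevalonate, isoprenoid diphosphates, squalene and lanosterol. When sterols in the endoplasmic reticulum run low, SCAP escorts the SREBP-2 precursor to the Golgi, where proteases release its active fragment, and INSIG proteins hold it back when sterols are plentiful. The active fragment binds sterol regulatory elements near the genes of nearly every enzyme of the route, usually beside sites for NF-Y and Sp1, and liver is a main site of this synthesis. The amount of Srebf2 mRNA therefore does not give the amount of active SREBP-2.

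Upstream sequences of the 6 members with an entry in RefSeq's promoter set (rat build GRCr8) were searched on both strands for CCAAT, the box bound by NF-Y, for GGGCGG, a box bound by Sp1, and for TCACNCCA, the core of a sterol regulatory element. The window ran from 250 bases before the start site to 50 bases after it. CCAAT was in the window of 5 of these 6 members, against 37.5% of all 33469 promoters, GGGCGG in 5 of 6, against 33.1%, and TCACNCCA in 1 of 6, against 3.89%. Of 13 other enzymes of the route with an entry, 10 held CCAAT, 11 GGGCGG and 1 TCACNCCA. The windows of the 6 members held 53.7% to 68.7% G and C, against a median of 51.7% over all promoters, so that the shares were not compared at like base composition. The 3 motifs did not overlap each other in these members, but in Dhcr7 a pair of GGGCGG matches shared 1 base. Sqle and Fdft1 had no entry. A match is only a match of letters. The 250 bases before the start site of Hmgcs1 (chr2:53382054-53382303, plus strand) and of Idi1 (chr17:66547525-66547774, minus strand) are shown because these members had the lowest and the highest difference between control SHPCs and MHs. The start site that RefSeq's set uses lies 2847 bases inside the annotated gene for Hmgcs1 and 533 bases inside it for Srebf2. For the other 4 it lies at the upstream boundary of the annotated gene. Capitals mark CCAAT or its reverse complement ATTGG, and GGGCGG or its reverse complement CCGCCC.
Hmgcs1: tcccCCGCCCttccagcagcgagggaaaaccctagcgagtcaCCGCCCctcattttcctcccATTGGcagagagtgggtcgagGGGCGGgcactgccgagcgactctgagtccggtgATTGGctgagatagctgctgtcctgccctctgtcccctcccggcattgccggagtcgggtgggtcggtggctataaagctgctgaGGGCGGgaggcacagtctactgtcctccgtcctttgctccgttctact
Idi1: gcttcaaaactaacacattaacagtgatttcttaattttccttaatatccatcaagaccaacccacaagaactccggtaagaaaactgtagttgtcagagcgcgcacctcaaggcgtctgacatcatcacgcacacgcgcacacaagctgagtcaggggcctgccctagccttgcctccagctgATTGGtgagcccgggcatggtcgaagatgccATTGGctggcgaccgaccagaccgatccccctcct

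The window of Srebf2 was the only one of the 6 with TCACNCCA, in capitals in this stretch (chr7:115543140-115543169, plus strand, GRCr8), where the motif starts at position -156 from the start site.
Srebf2: atgacgcgccaTCACCCCAtgagccgcttc
Hmgcs1 held 2 CCAAT and 4 GGGCGG matches and Idi1 held 2 CCAAT matches and no GGGCGG. Dhcr7 was the member without CCAAT in its window.

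Hmgcs1, the cytosolic HMG-CoA synthase early in the route, was lower in every SHPC sample than in both MH samples. It was at 3.74 and 3.58 in MHs. It was at 3.08, 3.09 and 2.95 in control SHPCs. It was at 3.04, 3.003 and 2.92 in SHPCs with BM-MCs. The SHPC groups overlapped each other and neither overlapped the MHs. Control SHPCs differed from MHs by -0.62 (standard error 0.12, 95% interval -0.89 to -0.34), a fold of 0.652, with an adjusted p = 0.064 from limma. SHPCs with BM-MCs differed from MHs by -0.67 (standard error 0.12, 95% interval -0.94 to -0.40), a fold of 0.629, with an adjusted p = 0.091 from limma. Neither difference passed the threshold of 0.05 in the design used here. With a prior variance that follows the intensity (limma's trend) both passed, with an adjusted p = 0.014 for control SHPCs and 0.020 for SHPCs with BM-MCs, and with quantile normalisation the difference of control SHPCs was -0.71 (adjusted p = 0.043 from limma). Over the alternatives other than the methods' t-test the adjusted p of Hmgcs1 from limma ran from 0.014 to 0.31 in control SHPCs and from 0.020 to 0.65 in SHPCs with BM-MCs. Between the SHPC groups Hmgcs1 differed by -0.05 (95% interval -0.31 to 0.20).

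**Figure D1:**
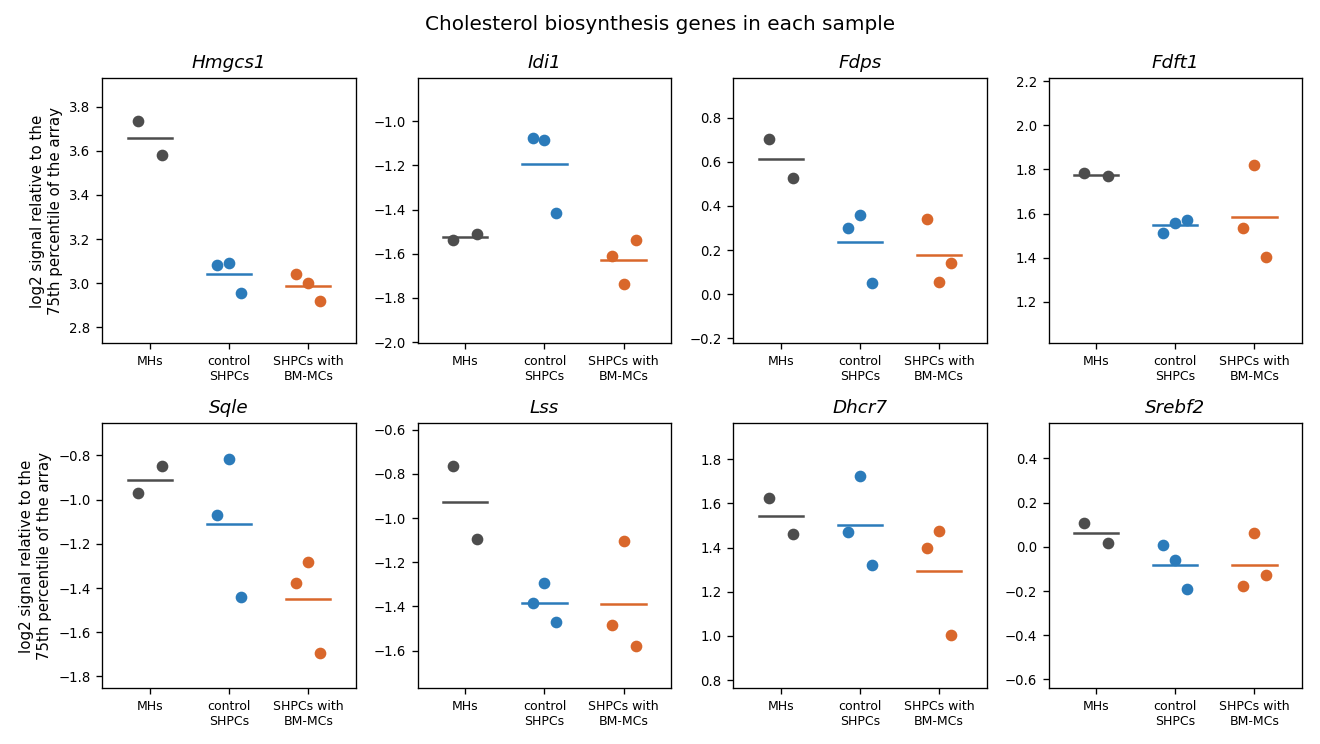
Each point is 1 sample, the vertical axis is the log2 signal of a gene over the array's 75th percentile, every panel spans the same range of 1.2 log2 units, and bars mark the group means. Hmgcs1 lies between 3.58 and 3.74 in MHs and at or below 3.09 in all 6 SHPC samples, while Idi1 is highest in control SHPCs.

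Idi1, the isomerase that turns isopentenyl diphosphate into dimethylallyl diphosphate, was the member whose mean was highest in control SHPCs, while that of the other 7 was highest in MHs. It was at -1.54 and -1.51 in MHs. It was at -1.08, -1.08 and -1.42 in control SHPCs. It was at -1.61, -1.73 and -1.54 in SHPCs with BM-MCs. Every control SHPC sample was above every sample of both other groups, control SHPC sample 3 by the least, and the ranges of MHs and SHPCs with BM-MCs touched at -1.54. SHPCs with BM-MCs differed from control SHPCs by -0.43 (standard error 0.14, 95% interval -0.77 to -0.10, adjusted p = 0.24 from limma). Control SHPCs differed from MHs by 0.33 (standard error 0.14, 95% interval -0.01 to 0.67, adjusted p = 0.27 from limma). A second probe of Idi1, elsewhere in the gene, gave -0.37 and 0.31 for the same comparisons. Within the second set of arrays, where control SHPC sample 3 is the lone control, the difference with BM-MCs was -0.21. Within the first set, the difference of 2 control SHPC samples from 2 MH samples was 0.44.

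Because both genes were read on the same array, the difference between their log2 signals within an array does not depend on the factor by which the array was scaled, although quantile normalisation can change it. This pair was chosen after its values were seen, so no test was made. Hmgcs1 minus Idi1 was 5.28 and 5.09 in MHs. It was 4.65, 4.74 and 4.46 in SHPCs with BM-MCs and 4.16, 4.17 and 4.37 in control SHPCs. The 3 groups did not overlap on this measure, with SHPCs with BM-MCs between the others. As the pair holds the lowest and the highest difference between control SHPCs and MHs, the distance between those groups follows from the choice. Between the SHPC groups Hmgcs1 differed by -0.05 and Idi1 by -0.43. Idi1 was the only member without overlap there, so that separation is mostly that of Idi1 and also follows from the choice. Control SHPC sample 3, on the second set of arrays, was the control nearest to the samples with BM-MCs.

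Fdps, the synthase of farnesyl diphosphate, from which sterols, ubiquinone and prenyl groups branch, was read by a probe printed on 10 spots. Its sequence is shown because it covers 145 bases of the rat build of the array, rn4 (chr2:181170192-181170336, minus strand), with only 60 bases, so that it spans an exon junction.
Fdps probe: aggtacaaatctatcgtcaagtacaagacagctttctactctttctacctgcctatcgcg
It was at 0.70 and 0.53 in MHs. It was at 0.30, 0.36 and 0.05 in control SHPCs and at 0.34, 0.05 and 0.14 in SHPCs with BM-MCs. Both MH samples were above all 6 SHPC samples. The difference from MHs was -0.38 in control SHPCs (standard error 0.15, adjusted p = 0.24 from limma) and -0.44 in SHPCs with BM-MCs (standard error 0.15, adjusted p = 0.32 from limma). With the set of arrays as a term the latter was -0.16. The SD of the log2 signal over the spots of 1 array was 0.032 to 0.079, and the SD between samples of a group was 0.13 to 0.16.

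Fdft1, the squalene synthase that commits farnesyl diphosphate to sterols, was at 1.78 and 1.77 in MHs. It was at 1.51, 1.56 and 1.57 in control SHPCs, all below the MHs. It was at 1.54, 1.82 and 1.40 in SHPCs with BM-MCs, where sample 2 was above the MHs. Its difference from MHs was -0.23 in control SHPCs (95% interval -0.57 to 0.11, adjusted p = 0.41 from limma) and -0.19 in SHPCs with BM-MCs (95% interval -0.53 to 0.15, adjusted p = 0.58 from limma). The latter was -0.31 without BM-MC sample 2 and -0.098 without BM-MC sample 3.

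Sqle, the squalene monooxygenase that oxidises squalene and limits the later part of the route, was at -0.97 and -0.85 in MHs. It was at -1.07, -0.82 and -1.44 in control SHPCs, whose range held both MHs. It was at -1.38, -1.28 and -1.69 in SHPCs with BM-MCs, all below the MHs. SHPCs with BM-MCs differed from MHs by -0.54 (standard error 0.21, 95% interval -1.03 to -0.05, adjusted p = 0.35 from limma), and control SHPCs by -0.20 (95% interval -0.69 to 0.29, adjusted p = 0.63 from limma). Between the SHPC groups the difference was -0.34 (95% interval -0.82 to 0.14, adjusted p = 0.42 from limma). It was -0.0088 within the second set of arrays and ran from -0.51 to -0.19 with each sample left out, and the difference of control SHPCs from MHs was -0.034 within the first set, that is without control SHPC sample 3. With the set as a term in the fit the difference of SHPCs with BM-MCs from MHs was -0.043. Its probe was also printed on 10 spots, with an SD within an array of 0.064 to 0.13. The SD between samples was 0.087 in MHs, 0.31 in control SHPCs and 0.22 in SHPCs with BM-MCs. A second probe of Sqle, which shares this run of 23 bases with the first and is therefore not an independent reading, gave a difference between SHPC groups of -0.09, and differences from MHs of -0.35 in control SHPCs and -0.44 in SHPCs with BM-MCs.
Sqle, shared by both probes: gatttcagtattggggtgattca

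Lss, the lanosterol synthase that closes the rings of the sterol, was at -0.76 and -1.09 in MHs. It was at -1.38, -1.29 and -1.47 in control SHPCs, all below the MHs. It was at -1.48, -1.10 and -1.58 in SHPCs with BM-MCs, where sample 2 came within 0.01 of the lower MH sample. The difference from MHs was -0.45 in control SHPCs (standard error 0.18, adjusted p = 0.24 from limma) and -0.46 in SHPCs with BM-MCs (standard error 0.18, adjusted p = 0.35 from limma). Without MH sample 1, the higher of the MHs, they were -0.29 and -0.29, and without MH sample 2 they were -0.62 and -0.62. Lss is also listed under a second probe name with the same 60 bases, which gave -0.49 and -0.39.

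Dhcr7, the reductase of the last step that yields cholesterol, was at 1.62 and 1.46 in MHs. It was at 1.47, 1.72 and 1.32 in control SHPCs and at 1.40, 1.48 and 1.002 in SHPCs with BM-MCs. All 3 groups overlapped. The difference of SHPCs with BM-MCs was -0.25 from MHs (95% interval -0.69 to 0.19) and -0.21 from control SHPCs (95% interval -0.64 to 0.21), and control SHPCs differed from MHs by -0.04 (95% interval -0.48 to 0.40). Without BM-MC sample 3, the lowest, the first 2 were -0.11 and -0.067, and without control SHPC sample 2, the highest, the difference between the SHPC groups was -0.10. Within the second set of arrays that difference was -0.029.

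Srebf2, the regulator of the route, had the smallest range of the 8 members over the 8 samples, 0.30, against 0.42 to 0.88 for the enzymes. It was at 0.11 and 0.02 in MHs. It was at 0.01, -0.06 and -0.19 in control SHPCs and at -0.18, 0.06 and -0.13 in SHPCs with BM-MCs. Control SHPCs lay below both MHs, the nearest by 0.01, and the SHPC groups overlapped. Their means differed by less than 0.001, with a 95% interval of -0.29 to 0.29. Srebf2 differed from MHs by -0.14 in each SHPC group (adjusted p = 0.56 for control SHPCs and 0.64 with BM-MCs, from limma).

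Counted together, 0 of 8 members passed an adjusted p of 0.05 from limma in any comparison. Of all tested probes 0.0216% passed for the effect of BM-MCs on SHPCs, 1.13% for control SHPCs against MHs and 0.338% for SHPCs with BM-MCs against MHs. At an unadjusted p under 0.05 from limma there were 1 of 8 members (Idi1) between the SHPC groups against 16.6% of all probes. There were 3 (Hmgcs1, Fdps and Lss) between control SHPCs and MHs against 19.2%, and 4 (Hmgcs1, Sqle, Fdps and Lss) for SHPCs with BM-MCs against MHs, where 13.3% of all probes did. In both comparisons with MHs the members' share was above that of all probes, but the 2 comparisons share the MH samples.

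**Figure D2:**
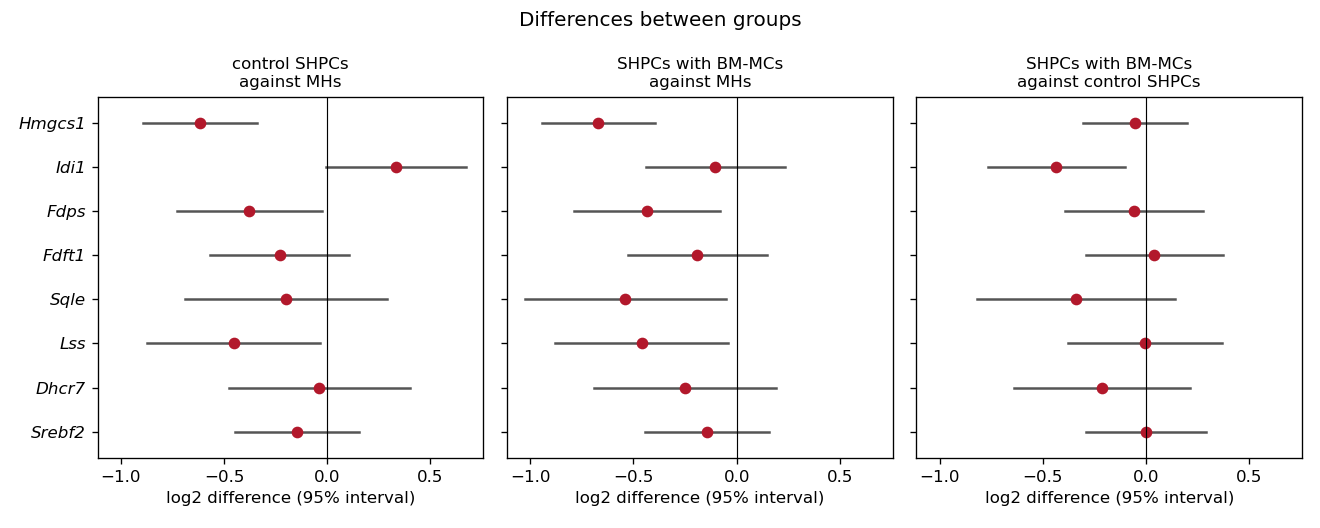
Points are log2 differences between group means from limma and lines are 95% intervals, 1 panel for each comparison. The interval of Hmgcs1 lies wholly below 0 in both comparisons with MHs, the interval of Idi1 lies wholly below 0 between the SHPC groups, and no member passed the adjusted threshold.

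The median difference over the 8 members was -0.22 in control SHPCs against MHs, where the median of all probes was -0.03, and 7 of 8 members were below 0, with Idi1 the exception. It was -0.34 in SHPCs with BM-MCs against MHs, where the median of all probes was 0.00, and 8 of 8 were below 0. Between the SHPC groups it was -0.06 against 0.02 for all probes, and 7 of 8 were below 0, with Fdft1 the exception. Against MHs, 5 members were below without overlap in control SHPCs and 4 in SHPCs with BM-MCs, where 22.7% and 16.3% of all probes were. Only Idi1 was above without overlap, in control SHPCs (18.7% of all probes), and no member was above in SHPCs with BM-MCs (16% of all probes). Between the SHPC groups only Idi1 lay below without overlap (11.6% of all probes) and none above (13% of all probes).

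Values of the members went with the set of arrays, but the sets largely coincide with the groups. Only control SHPCs lie on both sets, with sample 3 alone on the second. Each member was centred on its mean over the 8 samples and the members were averaged. This mean was 0.26 and 0.16 in MHs, 0.030, 0.11 and -0.15 in control SHPCs and -0.12, -0.038 and -0.26 in SHPCs with BM-MCs. All 4 samples of the first set of arrays were above 0 and all 4 of the second set below. Control SHPC sample 3, the lone control of the second set, was the lowest control for 7 of 8 members. Within the second set the median difference of SHPCs with BM-MCs from that control was 0.02, and within the first set the median difference between control SHPCs and MHs was -0.17, with Hmgcs1 at -0.57. SHPCs with BM-MCs and MHs differ in cell type, in transplantation (by the labels, the MHs are from control livers) and in set, which cannot be told apart by these 2 groups alone. The paper's discussion of the array clustering can be read as taking the MHs from transplanted livers. On that reading transplantation would not differ between these groups. With the set as a term in the fit, estimated through the control SHPCs, the only group on both sets, the median over the members was -0.10.

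**Figure D3:**
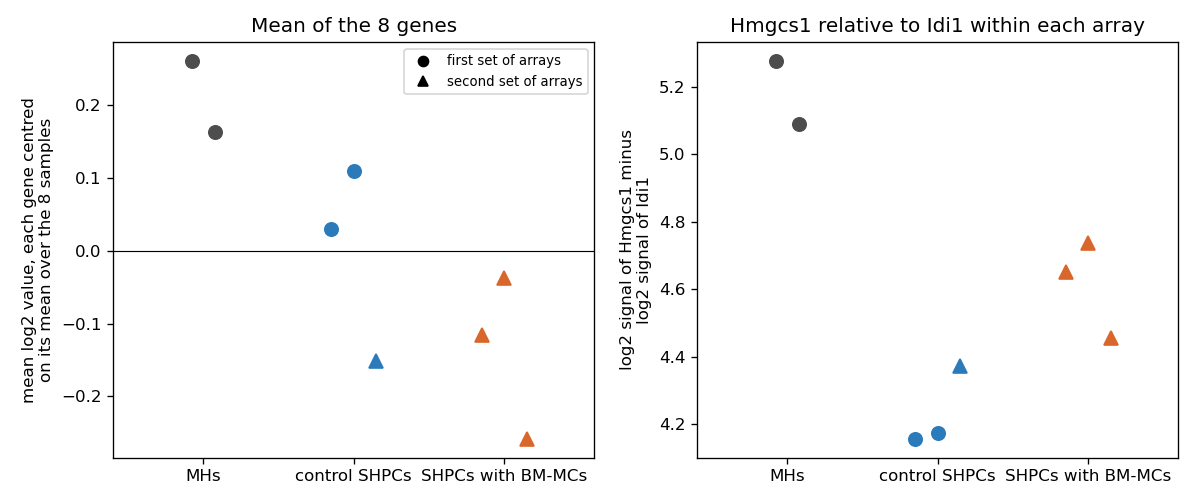
Left, the mean log2 value of the 8 genes in each sample after centring each gene on its mean. Right, the log2 signal of Hmgcs1 minus that of Idi1 in the same array. Circles are samples of the first set of 4 arrays and triangles those of the second. On the left the triangles, control SHPC sample 3 included, all lie below 0, and on the right the 3 groups do not overlap, with MHs at 5.09 or more and control SHPCs at 4.37 or less. The pair on the right was chosen after its values were seen.

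Members varied together in part. Over the 8 samples, which share set and group, 24 of the 28 pairs of members correlated above 0 with a median Pearson r of 0.58. The highest was Hmgcs1 with Fdps at 0.91, followed by Sqle with Dhcr7 at 0.88 and Fdft1 with Lss at 0.88. Srebf2 correlated at 0.87 with Lss. All 4 pairs below 0 held Idi1, the lowest of them with Fdft1 at -0.45. Among 14453 genes with a value on every array, the 10 whose profile was most like the mean of the members included Frzb, Tsku, Ciao1, Aagab, Ap2a2, Phf20, Fam32a, Ripor2 and Map2k3, with r from 0.97 to 0.99 over the 8 samples. None of the 10 was on a pathway list. The nearest pathway genes were Msmo1, a sterol demethylase, at rank 16 (r = 0.96) and Aacs, which feeds acetoacetate into the route, at rank 18 (r = 0.96).

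Other enzymes of the route were taken from a list of 16, all tested, and 0 passed in any comparison. Their median difference was -0.13 in control SHPCs and -0.17 in SHPCs with BM-MCs against MHs and -0.02 between the SHPC groups, with 9, 11 and 9 of 16 below 0. Cyp51, the lanosterol demethylase, differed from MHs by -0.41 in control SHPCs and by -0.59 in SHPCs with BM-MCs (adjusted p = 0.30 and 0.31 from limma).

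**Figure D4:**
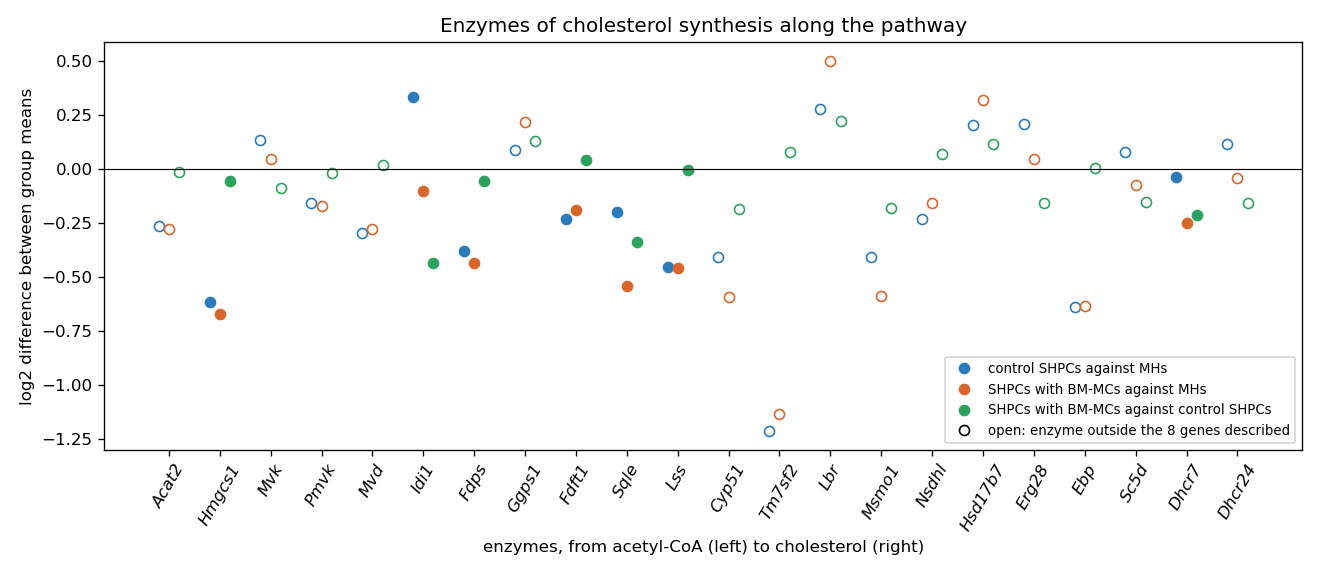
Each column is an enzyme of cholesterol synthesis, ordered from acetyl-CoA to cholesterol (Ggps1 is a side branch and Erg28 a scaffold of demethylation), and the vertical axis is the log2 difference between group means. Filled points are the 7 enzymes among the 8 genes described and open points other enzymes of the list. Hmgcs1 lies low in both comparisons with MHs and Idi1 above 0 only in control SHPCs against MHs.

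Genes that process SREBP (6 of 6 tested) had median differences of 0.13, 0.08 and -0.10 in control SHPCs against MHs, SHPCs with BM-MCs against MHs and between the SHPC groups, and 0 passed. Scap, the escort of the precursor, differed from MHs by -0.09 in control SHPCs and -0.20 in SHPCs with BM-MCs. Insig1, which retains the precursor and is itself a target of SREBPs, was at 1.71 and 1.87 in MHs, at 2.15, 2.15 and 2.35 in control SHPCs and at 1.67, 1.74 and 2.51 in SHPCs with BM-MCs. All control SHPC samples were above the MHs, and the samples with BM-MCs fell on both sides. Insig2, which also retains the precursor and is named here after its values were seen, differed by -0.50 in control SHPCs and -0.94 in SHPCs with BM-MCs against MHs and by -0.44 between the SHPC groups (adjusted p = 0.24, 0.17 and 0.30 from limma), in each without overlap. The differences of Insig1 were 0.43, 0.19 and -0.24 in the same order, so the signs were opposite against MHs and alike between the SHPC groups. Srebf1, the sister factor of Srebf2 that drives fatty acid synthesis, differed from MHs by 0.25 and 0.16 in the 2 SHPC groups (adjusted p = 0.37 and 0.65 from limma).

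Of 7 other targets of SREBP-2, 0 passed, with medians of -0.36 in control SHPCs and -0.18 in SHPCs with BM-MCs against MHs and 0.16 between the SHPC groups. Their signs differed. In SHPCs with BM-MCs against control SHPCs 4 were above 0 and 3 below, and 2 of each lay without overlap, and against MHs 2 of 7 were above 0 and 5 below in either SHPC group.

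Of 14 genes of sterol export, storage and bile acid synthesis 0 passed, with medians of -0.24 and -0.21 against MHs and 0.06 between the SHPC groups. Cyp7a1, the rate-limiting enzyme of bile acid synthesis from cholesterol, was at 0.43 and -0.08 in MHs, at -1.98, -1.94 and -1.51 in control SHPCs and at -0.82, -0.44 and -2.85 in SHPCs with BM-MCs. All SHPC samples were below the MHs, sample 3 with BM-MCs the farthest. The difference of control SHPCs was -1.99 (standard error 0.65, adjusted p = 0.18 from limma). The 7 tested of 8 genes of fatty acid synthesis under SREBP-1c were all below 0 and without overlap in both comparisons with MHs, with medians of -1.01 and -1.30, and 0 passed.

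Levels of markers of proliferation and of other cells are given by group, and their part in the members' values was not tested. Of the markers of other cells 0 passed in any comparison by limma. Fewer cells of a type and less RNA per cell cannot be told apart in these cuts. Of 8 proliferation markers, 6 were called higher in control SHPCs and 5 in SHPCs with BM-MCs against MHs by limma, and the sum of their signals was 1.48 to 1.54 in MHs, 4.87 to 6.17 in control SHPCs and 2.52 to 4.08 in SHPCs with BM-MCs, with no overlap. The sum over 6 Kupffer cell markers was 46.2 to 52.2 in MHs, 25.2 to 37.2 in control SHPCs and 32.2 to 45.3 in SHPCs with BM-MCs. The sum over the 5 tested of 6 sinusoidal endothelial markers was 14.4 to 17.2, 12.7 to 14.5 and 14.7 to 16.3 in the same order, over 6 stellate cell markers 3.51 to 3.57, 2.13 to 2.40 and 2.10 to 3.51, and over the 4 tested of 5 cholangiocyte markers 0.271 to 0.351, 0.393 to 0.438 and 0.412 to 0.530. The 2 tested of 5 granulocyte markers summed to 0.368 to 1.43, 1.07 to 1.49 and 0.336 to 0.452, and the 4 tested of 5 erythroid markers to 12.8 to 26.1, 20.0 to 67.0 and 9.89 to 13.5. The sums of proliferation, granulocyte, erythroid and sinusoidal endothelial markers did not overlap between the SHPC groups, the last being higher with BM-MCs and the others lower, and those of the other lists overlapped. A sum weighs bright probes most, here Hba-a1 for the erythroid and Kdr for the endothelial list. Taken singly, 3 of 4 erythroid markers lay lower with BM-MCs without overlap and Slc4a1 differed by 0.17, and 2 of 5 endothelial markers lay higher without overlap and Lyve1 differed by -0.07, these names being chosen after their values were seen.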

How the data were processed

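The authors deposited, for each of 8 samples, the scanner output of Agilent Feature Extraction 10.7 (per the submitters' processing notes) and a value table holding the same processed signal, an intensity from which background had been subtracted and which was not scaled between arrays. For control SHPC sample 2 the scanner output stops at 20903 of 62976 features. Its signals were read from the table instead, and the filter ignored its marks. Signals were divided by the 75th percentile of their array and put on the log2 scale, outlier spots were left out, and spots of a probe were averaged. A probe was kept where a minimum of 3 of the 7 complete arrays marked it well above background. The 23111 kept probes entered limma (version 3.58.1, R version 4.3.3), and p-values were adjusted over all of them by Benjamini and Hochberg's method. The fit held the 6 SHPC samples for the effect of BM-MCs and all 8 samples for comparisons with MHs. The number of arrays limits the precision.

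A gene was given by its brightest tested probe, and a member had its other probes beside it. Genes outside the members were given by that probe alone, also where others were tested, as for Cyp51, Insig1 and Srebf1. Pathway lists were given as counts, and Cyp51, Insig1, Srebf1, Scap, Cyp7a1 and any called gene by name. A few other genes of these lists and of the most alike genes are not reported here by name. The members and lists were chosen with earlier results of these data known. Alternatives were other scalings, filters, tests, terms for replicate number and slide set, other probes and leaving out each sample. The array's annotation uses rn4.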

Additional observations from a re-analysis of the deposited data

How the results depend on the processing

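Of 536 values of single members under alternatives, 495 kept direction and side of the threshold, 10 newly passed (Hmgcs1 in 3 fits of limma, and 7 values by the methods' unadjusted t-test) and 31 changed sign, each a value that had not passed. All members were well above background, and the 2 or 3 samples a group limit the precision, as the 95% intervals show. Dividing by the median lowered all probes with BM-MCs, from a median of 0.02 to -0.17 against control SHPCs and from 0.00 to -0.19 against MHs, and the members' medians to -0.25 and -0.54, so that the members stood from all probes as before (-0.07 and -0.35). Without scaling the members' median was -0.30 in control SHPCs and -0.42 in SHPCs with BM-MCs against MHs, and with normexp and quantile normalisation it was -0.31 in control SHPCs against MHs.

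Members called numbered 1 in control SHPCs against MHs with quantile normalisation, 1 in each comparison with MHs with an intensity trend (Hmgcs1), and by the t-test of the methods, unadjusted, 1 between SHPC groups (Idi1) and 3 in each comparison with MHs, where 14.9%, 17.5% and 9.25% of all probes passed in SHPCs with BM-MCs against control SHPCs, control SHPCs against MHs and SHPCs with BM-MCs against MHs, but 0 after Benjamini-Hochberg adjustment. Over all probes the calls ran from 0 to 530, 0 to 559 and 0 to 130 over the alternatives with adjusted p, against 5, 262 and 78, in the same order.

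Between the SHPC groups signs changed for Fdft1 by median scaling (-0.15, where the median of all probes was -0.17), for Hmgcs1 (0.061) and Srebf2 (0.0062) by quantile normalisation, for Lss (0.0011) and Srebf2 (0.0071) without scaling, for Hmgcs1 (0.076), Fdps (0.012), Lss (0.030) and Srebf2 (0.061) by normexp, for Lss (0.043) by the mean of its probes, and for Hmgcs1 (0.033), Fdps (0.13), Lss (0.080) and Srebf2 (0.11) with slide set as a term. With that term Dhcr7 was 0.053 in control SHPCs against MHs, and in SHPCs with BM-MCs against MHs Idi1 was 0.23, Dhcr7 0.024, Srebf2 0.021 and the median -0.10. The causes were not tested.

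Leaving out each sample, the medians ran from -0.12 to -0.01 between SHPC groups, from -0.29 to -0.17 in control SHPCs and from -0.40 to -0.24 in SHPCs with BM-MCs against MHs, lowest in size without MH sample 1 (-0.24) or BM-MC sample 3 (-0.26), and 0 members were called. Between SHPC groups Fdps ran from -0.15 to 0.0049, Fdft1 from -0.077 to 0.13, Lss from -0.15 to 0.089 and Srebf2 from -0.071 to 0.047, and Dhcr7 from -0.15 to 0.053 in control SHPCs against MHs.

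Samples with the same number in the SHPC groups deviated together at r = 0.13, 0.078 and 0.17. Unlike numbers ran from -0.15 to 0.082, the latter for control SHPC sample 2 with BM-MC sample 1. These small values lean towards a pairing by number. No source states such a pairing, so it was left out of the main fit and entered as an alternative. With a replicate block 0 members were called, the median was -0.27 in SHPCs with BM-MCs against MHs, Dhcr7 was 0.079 in control SHPCs against MHs, and the calls over all probes went from 262 to 159 there and from 78 and 5 to 0.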
